A study of Mus musculus with 8 samples.

Results

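The genes described here are the 7 keratins *Krt7*, *Krt8*, *Krt17*, *Krt18*, *Krt19*, *Krt23* and *Krt80*, chosen by name from the 46517 genes of a single-cell count table of the adult mouse liver. They take in keratins known from simple (single-layered) epithelia and ducts, and with *Krt17* and *Krt80* also chains better known from other epithelia. The table holds 47 other keratins, most of them of stratified epithelium, hair and nail. Keratins are the intermediate filament proteins of epithelial cells. Each filament is built from heterodimers of an acidic type I chain (*Krt17*, *Krt18*, *Krt19* and *Krt23*) and a basic type II chain (*Krt7*, *Krt8* and *Krt80*), so that a cell needs a chain of both types. In the liver, hepatocytes are known for the pair of keratins 8 and 18, bile duct cells (cholangiocytes) add keratins 7 and 19, and the mesothelium that covers the organ also carries keratins of simple epithelia.

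The livers were those of untreated adult mice of the C57Bl6 strain, male and female, and the full-length Smart-seq2 protocol was run on each sorted cell. Cholangiocytes were sorted with antibodies to EPCAM, hepatocytes were taken as living cells without selection, endothelial cells with antibodies to CD31 or VE-cadherin or on a *Cldn5*-GFP reporter, and Kupffer cells with an antibody to CD68. Mesenchymal cells were sorted on heterozygous reporter alleles (*Pdgfrb*-GFP, *Pdgfra*-H2bGFP or *Acta2*-GFP) or with an antibody to PDGFRα, so each plate shows what its sort admitted. *Cspg4*-dsRED mice were among the strains too. The male and the female cells of the parenchymal, endothelial, immune and mesenchymal classes make the 8 samples of the series, called pools here.

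The table holds 3491 cells on 22 plates, and each plate held cells of a single sex. After the 92 ERCC spike-in sequences were left out, the cells held 899986282 counts, from 47063 to 1128421 per cell with a median of 228708. Cluster #p2 (cholangiocytes) had 194 cells, 157 male and 37 female, with a median of 302428.5 counts. The hepatocyte clusters #p1, #p3, #p4 and #p5 had 64, 23, 59 and 57 cells, of which 2 cells of #p1 were female, and together a median of 166736 counts. The mesothelial cluster of the community setting, #m16c, had 6 cells, 4 male and 2 female. The labels name no mouse, so the tests below use pools as replicates, and their p-values measure the spread between these pools, which may in part be technical. The clusters were made by the authors from the same transcriptomes, keratins included. Marker genes went with the names of the clusters: the 6 cholangiocyte markers (among them *Epcam*, *Sox9*, *Spp1*, *Cftr* and *Cldn7*) summed to 7842 CPM (counts per 1000000 counts) in #p2 and 104 CPM in hepatocytes, and the 6 hepatocyte markers (among them *Alb*) to 14270 CPM in hepatocytes and 4527 CPM in #p2. Hepatocyte transcripts were thus also counted in cholangiocytes, *Alb* in all 194 of them at 3598 CPM, and their part in the keratin levels of #p2 was not tested.

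All 7 genes lie in the keratin gene clusters of the mouse genome (build GRCm38, GENCODE vM21), the type I genes on chromosome 11 and the type II genes, with *Krt18*, on chromosome 15. *Krt23* (ENSMUSG00000006777.7) is at chr11:99477974-99493137, *Krt19* (ENSMUSG00000020911.14) at chr11:100140810-100148665 and *Krt17* (ENSMUSG00000035557.9) at chr11:100256217-100261029, all on the minus strand. *Krt80* (ENSMUSG00000037185.9) is at chr15:101347444-101370162 on the minus strand, and *Krt7* (ENSMUSG00000023039.17) follows 40880 bases on, at chr15:101411043-101430313 on the plus strand. *Krt8* (ENSMUSG00000049382.10, chr15:101996698-102004482, minus strand) and *Krt18* (ENSMUSG00000023043.7, chr15:102028180-102032027, plus strand) stand head to head with 23697 bases between them, the only type I gene among type II genes. In *Krt8*, 29.7% of all windows of 50 bases, the length of the reads, also occur in a transcript of another gene (*Krt8-ps* or *Gm36026*, neither of which is a row of the table), so its level may miss or hold reads of these copies. For *Krt17* the share was 3.99% (*Krt14*, *Krt16* and *Krt42*), for *Krt80* 2.74%, for *Krt7* 0.916%, for *Krt18* 0.720%, and for *Krt19* and *Krt23* 0. Annotated transcripts of the opposite strand overlap 5.16% of the exonic bases of *Krt8*, 4.11% of *Krt80* and 1.09% of *Krt7*, and the library kit does not mark strand.

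The bases just before the start sites of the pair *Krt8* and *Krt18*, whose levels moved together over the clusters below, and of the duct gene *Krt23* are shown because they lie outside any annotated exon. RefSeq (GRCm38.p6) gives a promoter for 4 of the 7 genes. The *Krt8* stretch is chr15:102004483-102004582 on the minus strand (bases -240 to -141 from the start site that RefSeq gives, which lies inside the GENCODE gene), the *Krt18* stretch chr15:102028080-102028179 on the plus strand (-136 to -37 from its RefSeq start) and the *Krt23* stretch chr11:99493138-99493237 on the minus strand (-117 to -18 from its RefSeq start), each 5′ to 3′ with matches to a searched motif in capitals.
Krt8: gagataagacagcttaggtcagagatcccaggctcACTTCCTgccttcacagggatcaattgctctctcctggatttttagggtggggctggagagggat
Krt18: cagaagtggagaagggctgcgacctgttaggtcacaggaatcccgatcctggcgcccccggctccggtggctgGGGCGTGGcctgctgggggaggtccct
Krt23: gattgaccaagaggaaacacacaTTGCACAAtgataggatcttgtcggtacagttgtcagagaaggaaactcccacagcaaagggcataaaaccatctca
The capitals mark the letters of the EHF and ELF3 motif AGGAAGT on the reverse strand in *Krt8* (first base at -205), the KLF motif GGGCGTGG in *Krt18* (-63) and the C/EBP motif TTGCNNAA in *Krt23* (-94). In the same windows from the start of 32817 RefSeq promoters, 2.62%, 2.45% and 3.52% held these motifs on either strand. The GRHL motif AACCNGTT (0.625% of promoters in their last 100 bases before the start), the HNF4A motif CAAAGTCCA (0.171%), the FOXA motif TGTTTAC (1.12%) and the TATA box TATAAA (5.57%) had no match in the 3 stretches. The stretches of *Krt8* and *Krt18* end at -141 and -37, so bases nearer to the start were not searched, for the TATA box or any other motif. The motifs do not overlap in these stretches, and a match of letters is a description and not a binding site. The *Krt7* entry lies almost wholly in annotated exons, with 6 bases free, and *Krt17*, *Krt19* and *Krt80* are named only.

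Over 31 clusters (30 of the multilevel setting, and #m16c), the 7 keratins were counted almost wholly in cholangiocytes, hepatocytes and mesothelial cells. Levels are CPM of the counts summed over the cells of a cluster. The summed keratins reached 5067 CPM in #p2, 3668 CPM in #m16c and 1226 CPM in hepatocytes, and no more than 53.3 CPM (#i2) in any other cluster. Their makeup differed between the 3 cell types: *Krt8* and *Krt18* gave 99.5% of the keratin counts of hepatocytes, 71.1% of those of cholangiocytes and 12.6% of those of mesothelial cells. Of the 217 pairs of keratin and cluster, 24 were at 10 CPM or more, 6 of them in #p2 (all but *Krt17*), 8 for *Krt8* and *Krt18* in the 4 hepatocyte clusters, and 4 in #m16c. The other 6 were *Krt23* in #p4, *Krt8* in #e8 and #i6, *Krt18* in #i3, and *Krt7* and *Krt80* in #i2, each described below.

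**Figure D1:**
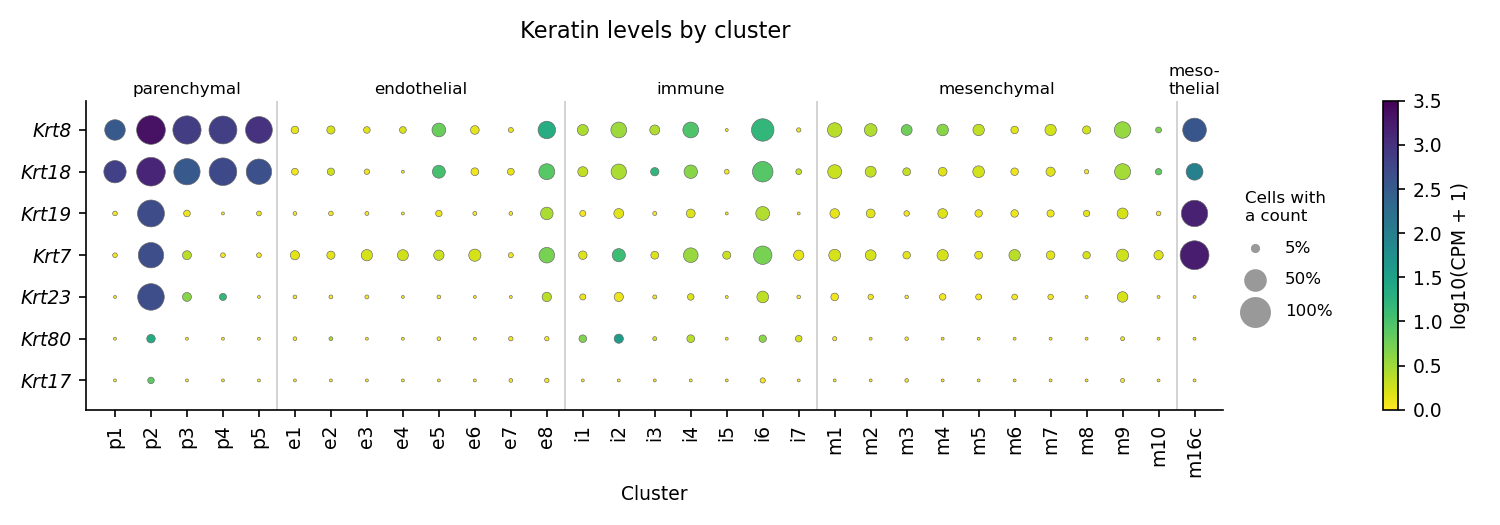
Levels of the 7 keratins (rows) in 31 clusters (columns), with colour for log10(CPM + 1) of summed counts and dot area for the percentage of cells with at least 1 count. Dark, large dots fill the parenchymal columns for *Krt8* and *Krt18*, only #p2 for *Krt23*, and #p2 and #m16c for *Krt7* and *Krt19*.

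*Krt8* and *Krt18*, the paired type II and type I chains of simple epithelium, were the most abundant keratins of cholangiocytes. On the 6 plates with at least 5 cells of #p2 (048s, 062s, 319s, Acta2_184s, 128s and 844s, in this order throughout), *Krt8* was at 2154, 3001, 2058, 2139, 2097 and 1855 CPM. *Krt18* was at 1388, 1526, 1316, 1228, 1138 and 1511 CPM. The plates thus lay close together for both genes, with the female plate 062s highest for both. *Krt8* was counted in 192 and *Krt18* in 191 of the 194 cells, and 96.4% and 93.3% of the cells held at least 20 counts, the study's detection limit. Per kilobase of the principal transcript, the level of *Krt8* in #p2 was 1131 CPM and that of *Krt18* 965 CPM. *Krt19* (313 CPM per kilobase), *Krt23* (303), *Krt7* (115), *Krt80* (7.04) and *Krt17* (4.16) followed on the same scale. On the length of all exons together the neighbours *Krt19* and *Krt23*, and *Krt80* and *Krt17*, changed places in this order.

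Hepatocytes carried the same pair at lower levels. *Krt8* was at 345 CPM in #p1, 746 CPM in #p3, 709 CPM in #p4 and 995 CPM in #p5. *Krt18* was at 695 CPM in #p1, 338 CPM in #p3, 525 CPM in #p4 and 438 CPM in #p5. Every plate of #p2 was above these values, but the 4 hepatocyte clusters have no replicate pools, since nearly all of their cells are male, and #p3, #p4 and #p5 came almost wholly from plate 128s. Within #p1, the 4 plates with at least 5 cells gave *Krt8* from 125 to 615 CPM and *Krt18* from 476 to 729 CPM, so *Krt8* was lower on each of these plates of #p1 than in the other 3 clusters, while the range of *Krt18* in #p1 took in the value of #p4. On plate 128s alone, *Krt8* was at 569 CPM in #p1 and at 680, 743 and 998 CPM in #p3, #p4 and #p5. Both keratins were counted in 21 of 64 cells of #p1, 18 of 23 of #p3, 51 of 59 of #p4, 39 of 57 of #p5 and 190 of 194 of #p2. In #p1, 15 cells held no count of either gene, 11 held *Krt8* alone and 17 *Krt18* alone, at a median depth of 131878.5 counts per cell.

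The balance of the 2 chains varied between clusters and, within #p1, between plates. Per length of transcript, the ratio of *Krt8* to *Krt18* was 0.364 in #p1, 0.991 in #p4, 1.17 in #p2, 1.62 in #p3 and 1.67 in #p5. Over the plates of #p2 the ratio ran from 0.901 to 1.44. In #p1 it was 0.949 on plate 319s, 0.710 on 128s, 0.209 on 705s and 0.137 on 707s, so the 4 plates with at least 5 cells were far apart. The remaining 12 cells of #p1 were spread over 8 further plates. On plate 128s, which holds cells of all 5 clusters, the ratio was 0.710 in #p1, 1.01 in #p4, 1.35 in #p2, 1.75 in #p3 and 1.72 in #p5. The difference was not tested, since the clusters share plates and the hepatocyte clusters have no replicate pools.

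**Figure D2:**
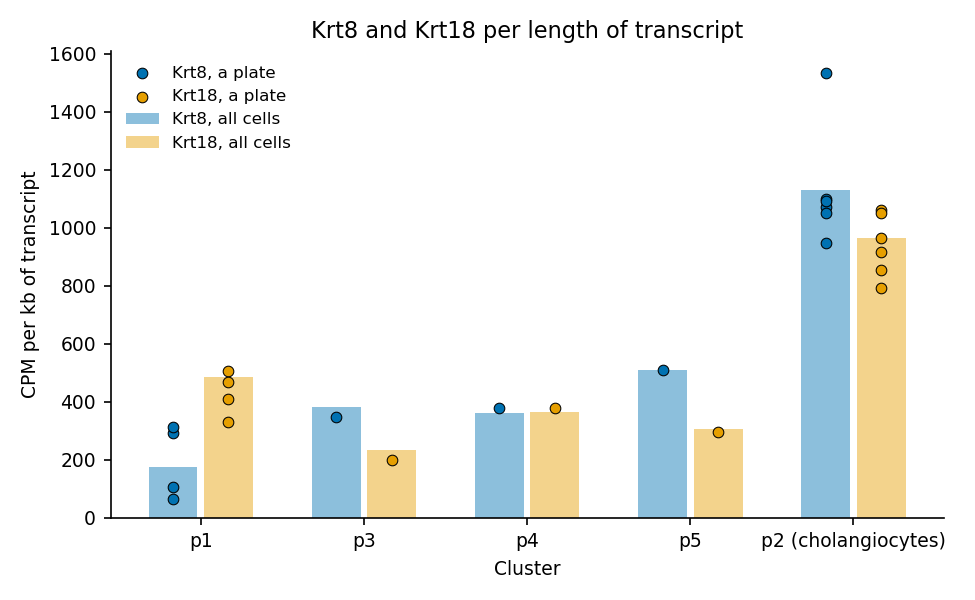
*Krt8* and *Krt18* in the 5 parenchymal clusters, in CPM per kilobase of principal transcript. Bars give all cells of a cluster and points the plates with at least 5 cells. *Krt8* exceeds *Krt18* in #p2, #p3 and #p5, while #p1 has 176 for *Krt8* and 484 for *Krt18*.

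*Krt7*, *Krt19* and *Krt23*, the type II and type I chains counted in ducts, were near each other in CPM in #p2 and nearly missing from hepatocytes. *Krt7* was at 469, 1037, 255, 335, 357 and 3.01 CPM on the 6 plates of #p2, *Krt19* at 485, 552, 459, 651, 240.2 and 569.9 CPM, and *Krt23* at 515, 348, 269, 157, 193 and 919 CPM. *Krt19*, a short type I chain almost without a tail domain, thus varied least of the 3 between plates. *Krt7* was lowest and *Krt23* highest on the same plate, 844s, where *Krt7* was counted in 1 of 7 cells. On that plate *Epcam* was counted in 4 of 7 cells, at 629 CPM against 359 to 1624 CPM over the 6 plates, and *Spp1* was at 2275 CPM against at most 6649 CPM. The male pool of cholangiocytes had *Krt7* at 410.3 CPM and the female pool at 1023 CPM, with a median per cell of 222 and 1111 CPM. *Krt23* had the opposite order, 488 CPM for males and 343 CPM for females, and *Krt19* was at 487 and 544 CPM. With 36 of the 37 female cells on plate 062s, sex and plate cannot be told apart.

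**Figure D3:**
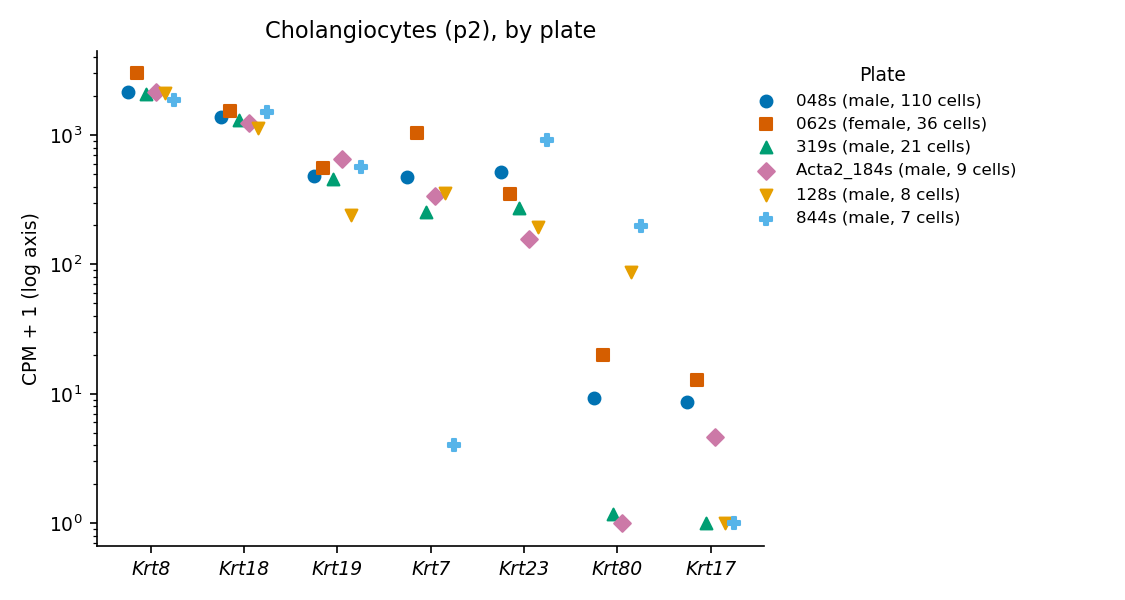
Level of each keratin in cholangiocytes (#p2) on the 6 plates with at least 5 cells, as CPM + 1 on a log axis, with a symbol for each plate. *Krt8* and *Krt18* spread little, *Krt7* falls to 3.01 CPM on plate 844s, and *Krt80* ranges from 0 to 196 CPM.

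Among single cholangiocytes the duct keratins were counted less evenly than the pair. *Krt7* was counted in 149 (76.8%, 95% exact binomial interval 70.2 to 82.5%), *Krt19* in 168 (86.6%, 81.0 to 91.1%) and *Krt23* in 164 (84.5%, 78.7 to 89.3%) of the 194 cells. At a limit of 20 counts the shares were 61.3%, 76.3% and 60.8%. The same counting gave *Krt7* in 13.02% of endothelial, 15.4% of immune and 10.8% of other mesenchymal cells, where the median depths of the 3 classes were 230825.5, 252531 and 221194 counts, but only 2 of these cells reached 20 counts. All 3 genes were counted in 121 cholangiocytes (62.4%), *Krt19* and *Krt23* without *Krt7* in 26, and none of the 3 in 6. Of all 7 keratins, 110 cells held 5, 47 held 4, 15 held 6 and 1 held all. The only #p2 cell without a keratin count was a female cell with no count of *Epcam* or *Spp1* and with *Alb* at 6244 CPM. Over the 194 cells the highest Spearman rank correlation of CPM between members was that of *Krt8* with *Krt18* (0.37), and that of *Krt7* with *Krt23* was -0.10. The cells share plates and differ in depth, with which *Krt8* had a correlation of -0.31, so these are descriptions.

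*Krt17* and *Krt80*, a type I chain of basal and appendage cells and a type II chain of differentiating epithelia, were rare in cholangiocytes. *Krt80* was at 8.25, 19.02, 0.173, 0, 86.8 and 196 CPM on the 6 plates, and *Krt17* at 7.59, 11.9, 0, 3.599, 0 and 0 CPM. *Krt80* was counted in 15 of 194 cells (7.73%, interval 4.39 to 12.4%), with 856 of its 1349 counts in 2 cells. *Krt17* was counted in 8 cells (4.12%, 1.80 to 7.96%), with 321 of its 403 counts in 2 cells, and 1 cell held both genes. The levels of both therefore rest on a few cells with up to 716 counts of *Krt80* and 198 of *Krt17*, while the remaining cholangiocytes held none.

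Cholangiocytes were far above hepatocytes in the duct keratins, while for the pair, higher on every plate of #p2, a call was made in only 1 of the fits (*Krt8*) or in none (*Krt18*). In 203 hepatocytes, *Krt7* had 8 counts in 5 cells (0.222 CPM) and *Krt19* 5 counts in 3 cells (0.139 CPM), so the level in #p2 was 2123 times as high for *Krt7* (95% counting interval 1077 to 4917) and 3550 times for *Krt19* (1521 to 10935). *Krt23* had 197 counts in 5 hepatocytes, 94 and 90 of them in 2 cells of #p4, which puts it at 14.04 CPM there, and its ratio was 86.6 (75.3 to 100.2). *Krt17* and *Krt80* had no count in hepatocytes (0 of 203 cells, which allows a share of up to 1.48%), and were at least 77.4-fold and 259-fold higher in #p2 against a floor of 3 counts over all hepatocytes. Such intervals and floors cover counting error only. For the test, counts were summed per cluster and pool, with #p2 in both pools and each hepatocyte cluster in the male pool, and #p2 was set against the mean of the 4 hepatocyte clusters. In edgeR's quasi-likelihood test, with p-values adjusted by the Benjamini-Hochberg method over all genes, *Krt7* rose by a log2 fold change of 11.04 (SE 0.84, adjusted p = 5.70e-09) and *Krt23* by 10.35 (SE 0.94, adjusted p = 3.17e-08). *Krt19*, *Krt80* and *Krt17* were called too, but they passed the filter on low counts (1.06 CPM) only through #p2, with at most 0.313 CPM in a hepatocyte sum for *Krt19* and no count for the others, so that their calls carry no weight and only the ratio and bounds above are given. *Krt8* (log2 fold change 1.16, SE 0.50, adjusted p = 0.0730) and *Krt18* (0.78, SE 0.52, adjusted p = 0.240) did not pass in edgeR's test, *Krt8* passed with DESeq2 size factors in edgeR (1.20, adjusted p = 0.0302) but not in DESeq2's own Wald test (1.20, adjusted p = 0.0640), and both lie below the median of all genes tested in this fit (1.38). With all hepatocyte sums as 1 level they lay above it, at 1.07 and 0.72 against 0.13, and did not pass in edgeR (adjusted p = 0.132 and 0.306). The fitted value weighs the 4 hepatocyte clusters equally on a log scale, so for *Krt23*, which is uneven among them, it exceeds the ratio of summed levels, and with 1 level it was 5.86 (adjusted p = 0.0368 in edgeR).

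Of the 4 keratins that reached the filter's CPM in a hepatocyte sum too, 2 (*Krt7* and *Krt23*) were called higher in #p2 (an adjusted p below 0.05 with a log2 fold change from 1 upwards), beside 23.3% of the 13354 such genes. *Krt7* reached the filter's 1.06 CPM in #p3 alone, at 1.31 CPM, and was at no more than 0.106 CPM in the other hepatocyte clusters. Its call thus leans on few counts there. With *Krt17*, *Krt19* and *Krt80*, which had to differ to be tested, the calls are 5 of 7, beside 28.6% of the 16694 genes tested. Over all 7, these 3 included, the median log2 fold change was 10.35, the value of *Krt23*, or 8.02 with *Krt17* and *Krt80* at their bounds, and that of all genes tested was 1.38. The 4 others had 11.04 (*Krt7*), 10.35 (*Krt23*), 1.16 (*Krt8*) and 0.78 (*Krt18*) in the same fit. This fit rests on 1 residual degree of freedom, the male against the female sum of #p2. With all hepatocyte sums as 1 level, the calls were again 5 of 7, the same 3 included, beside 12.3% of genes. The filter of that fit asks for 2 sums, so *Krt7* too was tested only through #p2, and of the 5 calls only that of *Krt23* carries weight. With the pool as a replicate block in that fit, *Krt7* and *Krt19* were called, beside 2.04%, both tested only through #p2.

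The mesothelial cells held *Krt7* and *Krt19*, with *Krt8* uneven between cells and little *Krt18*. In the order of the male cells of plates 128s, 705s, Acta2_184s and Rb_573s and the female cells of plate 058s, *Krt7* had 79, 357, 164, 1042, 138 and 997 counts. *Krt19* had 322, 0, 548, 940, 259 and 444 counts. *Krt7* was thus in every cell and *Krt19* in all but the cell of plate 705s, which is also the shallowest at 114657 counts. *Krt8* had 1, 0, 119, 308, 174 and 0 counts, and *Krt18* had 159, 0, 1, 0, 0 and 0 counts. In these cells the 2 chains of the pair were therefore not counted together at 20 counts or more: 3 cells held *Krt8* and another cell held *Krt18* at that level. *Krt17*, *Krt23* and *Krt80* had no count (0 of 6 cells, which allows a share of up to 50%).

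At the level of the cluster, *Krt7* was at 1683 CPM in mesothelial cells and 472 CPM in cholangiocytes, and *Krt19* at 1523 and 493 CPM. The order was the reverse for *Krt8*, at 365 CPM in mesothelial cells and 2214 CPM in cholangiocytes, and for *Krt18*, at 97.0 and 1387 CPM. In the pools of mesothelial cells, *Krt7* was at 1972 CPM (male) and 1389 CPM (female) and *Krt19* at 2174 and 860.2 CPM, and for both genes both pools lie above the male and the female value of #p2. The 6 mesothelial markers (*Msln*, *Gpm6a*, *Wt1*, *Upk3b*, *Lrrn4* and *Upk1b*) were all counted in #m16c and summed to 10897 CPM against 57.1 CPM in the other mesenchymal cells, with 413 to 1572 counts of *Msln* in each cell. Of the cholangiocyte markers, *Epcam*, *Cftr* and *Cldn7* were at 0 in #m16c.

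**Figure D4:**
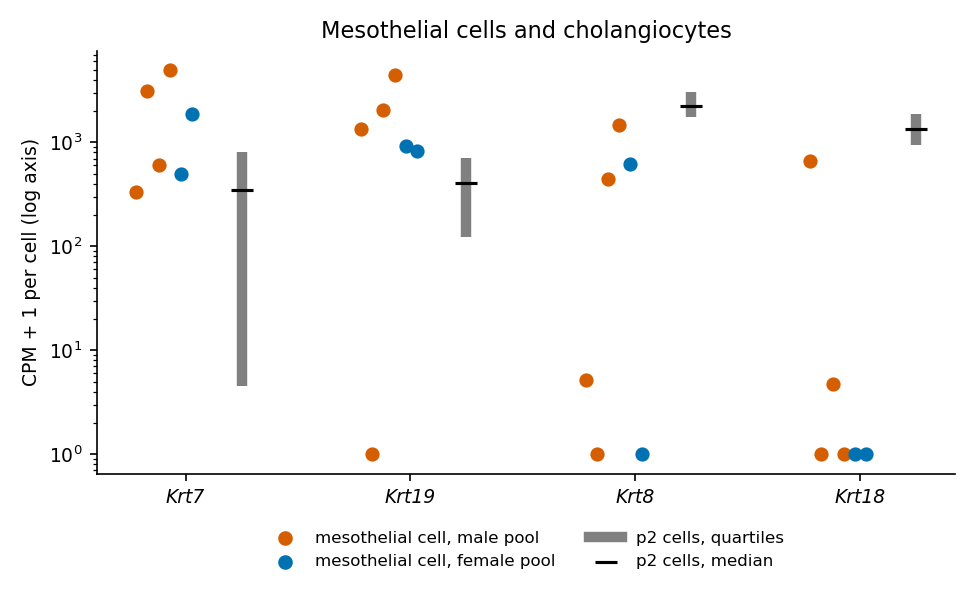
Keratin levels of the 6 mesothelial cells (points, by pool) beside the median and quartiles of the 194 cholangiocytes (black lines and grey bars), as CPM + 1 per cell on a log axis. *Krt7* and *Krt19* reach 4972 and 4485 CPM in mesothelial cells, and 3 cells hold *Krt8* and 1 cell *Krt18* above 100 CPM.

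Against the other mesenchymal cells, *Krt7*, *Krt8*, *Krt18* and *Krt19* were higher in the summed counts of #m16c, in a comparison that rests on 1 sum of 4 cells with no spread of its own. In the other 17 community clusters the highest levels were 1.42 CPM for *Krt7* (#m15c), 1.33 CPM for *Krt19* (#m6c), 11.9 CPM for *Krt8* (#m7c) and 7.12 CPM for *Krt18* (#m13c). No pool held 5 mesothelial cells, so the test used sums of at least 3 cells, which leaves the 4 male cells as 1 sum of 832502 counts that is assumed to vary like the sums of the other clusters. In edgeR's quasi-likelihood test (p-values adjusted by Benjamini-Hochberg), the log2 fold change was 12.98 for *Krt19* (SE 0.84, adjusted p = 3.22e-14), 11.31 for *Krt7* (SE 0.85, adjusted p = 1.93e-12), 8.26 for *Krt8* (SE 1.32, adjusted p = 2.13e-05) and 8.25 for *Krt18* (SE 1.39, adjusted p = 5.76e-05). These 4 calls are of 5 members tested, beside 2.58% of 20913 genes, where the median of all genes tested was -3.42. The fifth, *Krt23*, has no count in #m16c and gives no fold, and the male call of *Krt18* rests on 1 cell with 159 of its 160 counts. That cell, of plate 128s, also held 170 counts of *Alb*, where the other mesothelial cells held 1 to 12. The part of hepatocyte transcripts in its *Krt18* was not tested.

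The keratins were mostly higher in the parenchymal pools than in the pools of the other 3 classes. The share of all genes ordered in this way was not counted, so the levels are a description. In the male and the female parenchymal pool, *Krt8* was at 1573 and 2886 CPM against 1.15 to 5.33 CPM in the 6 other pools, and *Krt18* at 1045 and 1467 CPM against 0.184 to 4.52 CPM. *Krt7* was at 251 and 997 CPM against 0.462 to 10.7 CPM, and *Krt19* at 298 and 531 CPM against 0.0866 to 8.61 CPM, with mesothelial cells counted among the mesenchymal pools. *Krt23* was at 300.3 and 334 CPM against 0 to 0.307 CPM, *Krt17* at 3.58 and 11.4 CPM against 0 to 0.0362 CPM, and *Krt80* at 13.4 and 18.3 CPM against 0 to 13.5 CPM. The male immune pool thus reached the male parenchymal pool in *Krt80*. Set against the mean of the 3 classes in edgeR's quasi-likelihood test (p-values adjusted by Benjamini-Hochberg), *Krt23* had the log2 fold change of 10.84 (SE 1.18, adjusted p = 0.00116), *Krt8* 9.48 (SE 0.74, adjusted p = 3.71e-04), *Krt18* 9.23 (SE 0.97, adjusted p = 9.87e-04) and *Krt19* 8.99 (SE 0.61, adjusted p = 2.67e-04). In the same edgeR fit *Krt7* had 7.62 (SE 0.68, adjusted p = 5.48e-04) and *Krt80* 5.69 (SE 1.20, adjusted p = 0.0184).

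*Krt17* was called too, but passed the filter on low counts only through the parenchymal pools, so its call carries no weight. The 6 others, which passed it in the other classes as well, were called higher in parenchymal cells, beside 7.44% of 23197 such genes and 8.37% of all 24046 genes tested. The 7, *Krt17* included, had a median log2 fold change of 8.99, and all genes tested one of -0.27. With the other classes as 1 level, *Krt19* (7.14, adjusted p = 0.0729 in edgeR) and *Krt80* (2.52, adjusted p = 0.536) were no longer called in that edgeR fit. Without plate 062s, *Krt80* was not called (5.63, adjusted p = 0.0749 in edgeR).

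Outside the parenchyma and the mesothelium, 31 of 3088 cells held at least 20 counts of any of the 7 keratins, and no cell held that many of 2 of them. Low counts of the pair were commoner: *Krt8* was counted in 11.8% of endothelial, 17.97% of immune and 15.8% of other mesenchymal cells, at 2.54, 2.62 and 2.25 CPM. In the sinusoidal endothelial cluster #e8 (19.6 CPM of *Krt8*) and the immune cluster #i6 (14.8 CPM) these counts were tied to plate 062s, which also holds 36 cholangiocytes. On that plate, 52 cells of #e8 had *Krt8* at 64.0, *Krt18* at 23.3, *Krt7* at 13.1, *Krt19* at 5.30 and *Krt23* at 4.18 CPM. On the 4 other plates of #e8 with at least 5 cells, *Krt8* was at 0 to 3.11 CPM. In #i6, 67 cells of plate 062s had *Krt8* at 24.98 and *Krt18* at 12.54 CPM, and 19 cells of plate 057s at 0 and 0.178 CPM. The duct markers moved with the keratins: *Epcam* and *Spp1* were at 8.51 and 310 CPM in #e8 on plate 062s, and *Epcam* at 0 to 0.777 CPM and *Spp1* at 0 to 16.3 CPM on the other plates. Of the 6 cholangiocyte markers 6 were counted in #e8 and in #i6, at a sum of 105 and 114 CPM, and their part in these keratin counts was not tested.

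**Figure D5:**
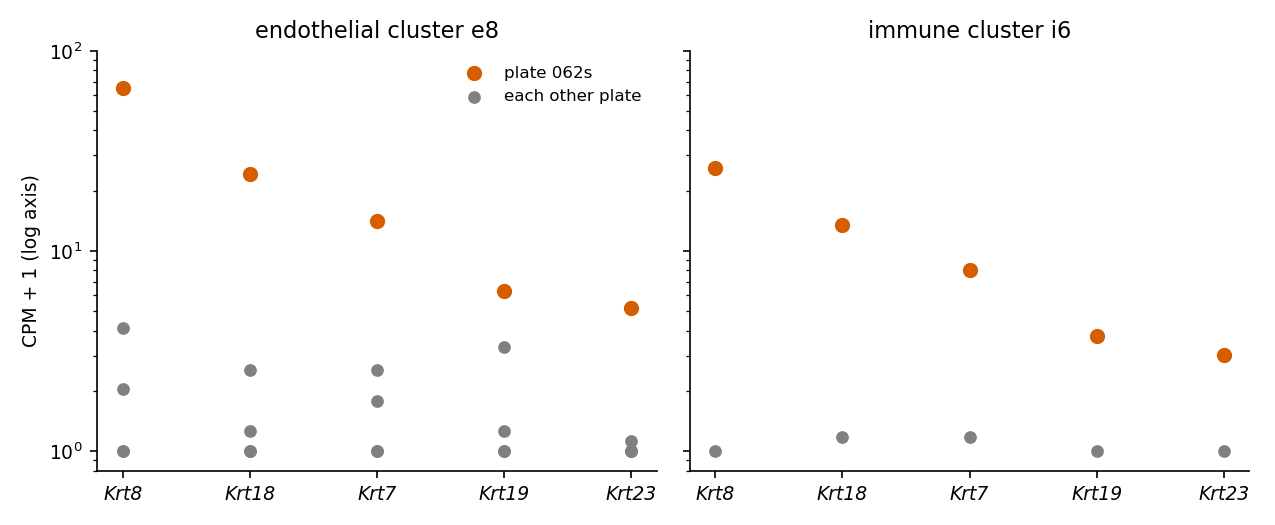
Levels of 5 keratins in the endothelial cluster #e8 (left) and the immune cluster #i6 (right), as CPM + 1 on a log axis, for plate 062s (orange) and each other plate with at least 5 cells (grey). The orange points lie above every grey point, and keep the order *Krt8*, *Krt18*, *Krt7*, *Krt19*, *Krt23*.

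Isolated cells made up the other levels outside the parenchyma. *Krt80* was at 36.7 CPM in #i2, and within it at 71.5 CPM in 41 cells that the authors' community clustering calls monocytes (#i2c), where 6 cells held a count and 4 held 159 to 310. These 4 cells were male and came from plates 319s and 708s, and the 2 of plate 319s also held 22 and 23 counts of *Spp1*, while of those of plate 708s 1 held 84 counts of *Epcam*. *Krt7* in #i2 (11.7 CPM) came from 2 cells with 213 and 39 counts. The first held 0 counts of the immune marker *Ptprc* and 51 of the mesenchymal marker *Pdgfrb*, and the second 171 and 1. *Krt18* in #i3 (14.8 CPM) came from a cell with 260 counts, and an endothelial cell of #e5 held 242. *Krt8* reached 164 counts in a mesenchymal cell of #m3 and 126 in a cell of #m10, with no count of *Epcam* or *Spp1* in either and 313 and 0 counts of *Alb*.

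The genes whose levels followed each keratin most closely over the 31 clusters fell into the same groups. Likeness is the Pearson correlation of log2(CPM + 1) among 16691 genes of at least 10 CPM in some cluster, and it rests on the few clusters in which these genes are high. *Krt8* and *Krt18* were nearest to each other (0.97), followed for both by *Grb7*, an adaptor of receptor tyrosine kinases (0.95 and 0.94), and by *B230206H07Rik* (0.93 and 0.92). *Krt7* and *Krt19* correlated at 0.97, and both had as neighbours *Il17re*, a receptor subunit for interleukin 17C (0.97 and 0.99), and *Wnt7b*, a Wnt ligand (0.95 and 0.98). *Il17re* was at 209 CPM in #p2 and 396 CPM in #m16c. *Krt23* was nearest to *Pkhd1*, the fibrocystin gene of primary cilia in ducts (0.96), *Dnah5*, an axonemal dynein (0.96), and *Serinc2* (0.96), all 3 at 0 in #m16c. *Krt80* was nearest to *Rundc3b* (0.88), *Ctnnd2* (0.87) and *Spint1* (0.86), and *Krt17* was under 10 CPM in every cluster and was not ranked.

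Keratin filaments are anchored at desmosomes and hemidesmosomes. Of 24 genes of desmosomes, hemidesmosomes and keratin linkers, 19 were tested against hepatocytes. Of the 15 that reached the filter's CPM in a hepatocyte sum, 10 rose in #p2 and 5 did not pass, where 23.3% of such genes were called higher and 10.8% lower. *Evpl*, *Itgb4* and *Krtcap3* were called higher as well but were tested only through their counts in #p2, which with them makes 13 of 19, beside 28.6% higher and 8.67% lower of all genes. Over all 19, those tested only through #p2 included, the median log2 fold change was 5.53 (4.90 with genes at 0 on a side at their bound) against 1.38 over all genes. *Pkp3*, a desmosomal plaque protein, was at 109 CPM in #p2 and 2.11 CPM in hepatocytes, *Dsc2*, a desmosomal cadherin, at 91.6 and 7.83 CPM, and *Itgb4*, the hemidesmosomal integrin chain, at 81.2 and 0.305 CPM. *Evpl*, a plakin that ties keratins to desmosomes, was at 34.5 CPM in #p2 and held 2 counts in hepatocytes (ratio 621, interval 172 to 5130), *Fam83h*, which binds keratin filaments, was at 53.3 and 1.80 CPM, and *Krtcap3* was at least 1043-fold higher. In parenchymal cells against the other classes 10 of the 17 that passed the filter in the other classes rose and *Dst* fell, where 7.44% of such genes were called higher and 4.20% lower. With *Dsc2* and *Dsg1a*, tested only through the parenchymal pools, the calls are 12 of 19, beside 8.37% higher and 4.05% lower of all genes, with a median of 5.59 against -0.27. Among the genes that passed in the other classes, *Dsg2* (log2 fold change 9.50), *Dsp* (8.75), *Fam83h* (7.14) and *Perp* (6.42) had the largest fitted values, which weigh the 3 other classes equally on a log scale. For *Dsc2* and *Dsg1a* only ratios of summed levels are given, 3492 (interval 2079 to 6391) and 42.4 (23.7 to 81.4, from 73 counts in all parenchymal cells). On summed levels *Perp* was at 136 CPM in parenchymal and 19.1 CPM in the other cells, a ratio of 7.12. In mesothelial cells *Jup* was at 495, *Plec* at 427, *Itgb4* at 318, *Pkp2* at 296, *Perp* at 152, *Dsg2* at 72.7 and *Evpl* at 49.7 CPM, and *Dsp*, *Dsc2* and *Pkp3* were at 0.

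The other intermediate filaments were set against the same cells. Of 15 genes, 10 were tested against hepatocytes. The neurofilament gene *Nefh* (11.6 CPM in #p2, at least 139-fold higher) was called but tested only through its counts in #p2, and no other gene of the 10 was called higher in edgeR's test. Of the 7 that reached the filter's CPM in a hepatocyte sum, 0 were called, where 23.3% of such genes were called higher and 10.8% lower. The median log2 fold change of the 10 was 0.19 against 1.38. In parenchymal cells against the other classes, all 12 genes tested passed the filter in the other classes. By edgeR's test 0 of the 12 rose, beside 7.44% of such genes, with *Lmna* and *Nefh* higher at an unadjusted p under 0.05. *Vim*, the filament of mesenchymal cells (log2 fold change -4.12), and *Nes*, a filament of progenitor and vascular cells (-6.30), fell, beside 4.20% of such genes. The median was 0.49 against -0.27 over all genes. *Vim* was at 2456 CPM in mesothelial cells, beside their keratins, and 13.5 CPM in cholangiocytes.

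Of 21 transcription and splicing regulators of simple epithelium, 20 were tested against hepatocytes. Of the 13 that reached the filter's CPM in a hepatocyte sum, 4 rose and 3 fell in #p2, beside 23.3% and 10.8% of such genes. *Grhl2*, *Ehf*, *Klf5*, *Ovol2*, *Tead1* and *Esrp1* were called higher too but were tested only through their counts in #p2, which with them makes 10 of 20, beside 28.6% higher and 8.67% lower of all genes, with a median log2 fold change of 4.10 against 1.38. *Ehf* and *Elf3*, both of the epithelial ETS factors, were at 238 and 211 CPM in #p2 and at 0.0278 and 2.22 CPM in hepatocytes. *Grhl2*, of the grainyhead factors, was at 79.7 CPM and *Klf5* at 65.9 CPM, with 1 count each in hepatocytes (ratios 2870, interval 515 to 113374, and 2372, interval 425 to 93700). *Esrp1*, a splicing regulator, was at least 454-fold and *Ovol2* at least 132-fold higher. The 3 that fell were *Hnf4a* (log2 fold change -3.58) and *Cebpa* (-2.86), both factors of hepatocytes, and *Esrp2* (-1.96). In parenchymal cells against the other classes 10 of the 17 that passed the filter in the other classes rose and *Klf4* fell (-4.35), beside 7.44% and 4.20% of such genes. With *Grhl2*, *Ovol2*, *Foxa1* and *Foxa2*, tested only through the parenchymal pools, the calls are 14 of 21, beside 8.37% and 4.05% of all genes, with a median of 8.58 against -0.27. *Ovol2* had 1 count in all other classes (ratio 5599, interval 1002 to 221455). The log2 fold change was 10.10 for *Elf3* and 9.78 for *Ehf*. For *Grhl2* and *Foxa2* only ratios of summed levels are given, 794 (interval 603 to 1069) and 494 (428 to 573). *Ehf*, *Elf3*, *Grhl2* and *Foxa2* were at 0 in the 6 mesothelial cells.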

How the data were processed

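The authors deposited a table of raw counts per gene and cell, made without molecular identifiers. Their processing notes name bcl2fastq, Bowtie, Bowtie2, featureCounts of Subread and Seurat, and the builds GRCm38 and mm10, with no versions. The strand setting of the counting was not given in the sources used here, and no cell was removed here beyond the authors' filters, which took out cells with signs of other cell types and doublets by an upper limit on genes. PCR copies are counted, so intervals cover counting error only.

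Clusters and cell classes were taken from the authors' annotation, with the multilevel setting for all clusters and the community setting for the mesothelial cells. Counts were summed per cluster (or class) and pool, over at least 5 cells, or at least 3 for the mesothelial comparison. The ERCC rows were left out. Each comparison was fitted on all genes that passed filterByExpr, with a level per cluster or class and TMM scaling, in edgeR 4.0.16 (R 4.3.3) with glmQLFit and glmQLFTest and Benjamini-Hochberg adjustment. Genes were called at an adjusted p below 0.05 where the log2 fold change was 1 or more in size. Genes that reached the filter's CPM only in the tested group were counted apart. Standard errors were derived from the log2 fold change and its F statistic. The fits were tested on simulated data. Alternatives were DESeq2 1.42.0, DESeq2 size factors, no filter, sums per plate, other minimum numbers of cells, cells thinned to 50000 counts, pools left out, and the pool as a replicate block.

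Male pools deviated from their class means together in all 6 pairs of classes (correlations 0.102 to 0.312 over 10364 genes), and 20 of 22 plates held cells of more than 1 class, so pools of a sex were treated as paired in the blocked fits. Shares of cells carry exact 95% binomial intervals, except that a share of 0 is given the limit of 3 of the cells counted. Levels of 0 counts carry a floor of 3 counts. Plates are shown where they held at least 5 cells of a cluster. The 7 keratins, the gene lists and the motifs were chosen with earlier results of these data known. All 7 members were described, with the 3 genes nearest to each in pattern, and from each list up to 6 called genes with the largest change, with others chosen after their values were seen. A gene of the lists and a motif are not reported here. Python 3.11.15 was used for levels.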

Additional observations from a re-analysis of the deposited data

How the results depend on the processing

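No called keratin changed direction under an alternative that could be fitted. *Krt23*, with no count in mesothelial cells, is left out of the mesothelial values, since its fitted sign there is arbitrary (-2.74 in edgeR and 1.35 in DESeq2). The fits with 1 level for all other clusters or classes and those without plate 062s were chosen after seeing the data. Against hepatocytes 5 of 7 keratins were called, 4 with sums per plate (*Krt17* adjusted p = 0.102 in edgeR), 6 with DESeq2 size factors in edgeR (*Krt8* adjusted p = 0.0302), and 2, both tested only through #p2, with 1 level for all other clusters and the replicate block. With 1 level and without replicate 2 they were also 2, the only pool that could be left out there. In parenchymal cells against other classes all 7 were called with the replicate block, 5 with 1 level and with that level and the block, and 0 with 1 level without replicate 1 or without replicate 2, where edgeR called 0 genes in all and 6 and 5 keratins had an unadjusted p under 0.05. In mesothelial cells the same 4 keratins were called in each of the fits made, the replicate block included. Genes called higher fell from 4777 to 576 against hepatocytes with sums per plate, to 1779 with 1 level, to 295 with the block too and to 176 without replicate 2. They went from 2013 to 3002 with DESeq2 and 3210 with no filter in the comparison of classes, and to 523 with 1 level and 361 with the block. In mesothelial cells they fell from 539 to 219 with 1 level and 194 with the block. The split of mesothelial calls was 539 higher and 491 lower, against 789 and 420 with DESeq2 size factors and 638 and 3378 with DESeq2. DESeq2 size factors moved the median log2 fold change of all genes there from -3.42 to -3.31, DESeq2 to -0.48, no filter to -1.54, the block to -3.28 and 1 level to -5.60. The causes of these shifts were not tested. The comparison with hepatocytes could not be fitted with the block or without a pool at a level per cluster, nor the others without a pool, for want of residual degrees of freedom, and the mesothelial one could not be fitted with sums of 5 or 10 cells or per plate. Pairs of keratin and cluster at 10 CPM or more numbered 24, and 18 to 23 with a pool left out. Thinning to 50000 counts took the share of cholangiocytes with a count of *Krt7* to 69.8% and of *Krt23* to 72.9%. Counting depth, with 6 mesothelial cells and 37 female cholangiocytes, limits what can be said of rare keratins there.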

Other observations

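Of the 47 other keratins in the table, 11 had no count, 40 had under 100 counts over all 3491 cells, and 12 reached 20 counts in some cell. *Krt10*, a keratin of suprabasal epidermis, was the most counted, with 4848 counts in 234 cells, and the only other keratin above 10 CPM in cholangiocytes (13.9 CPM in #p2, 5.50 CPM in hepatocytes). *Krt222* had 956 counts in 91 cells and was at 18.8 CPM in mesothelial cells, 2.58 CPM in endothelial cells and 0 in hepatocytes. *Krt88* had all of its 41 counts in 2 cholangiocytes. These genes were named after their values were seen.

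Among the 31 cells outside the parenchyma and the mesothelium with at least 20 counts of a keratin, 17 held *Krt8*, 6 *Krt18*, 6 *Krt80* and 2 *Krt7*. The cells with *Krt18* had no count of *Epcam* or *Spp1* and from 1 to 251 counts of *Alb*, with 138 in the shallowest of them (64692 counts). A male endothelial cell of #e5 on plate 704s held 90 counts of *Krt8*, and a female immune cell of #i2 on plate 062s held 23 counts of *Krt8* with 53 counts of *Epcam* and 71 of *Spp1*.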
